A study of Mus musculus with 12 samples.

Results

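Complement and coagulation are 2 cascades of plasma proteins that the liver makes, and their genes were followed across the livers of mice on 4 diets. The set comprised 39 genes, chosen by name because each encodes a complement or clotting protein of plasma. Of the 22170 gene names in the deposited expression table, 36 were names of members, and all 36 passed the filter on low values described below. The other 3, C2, F7 and Cfp, had no row under their own name. They were recovered by assigning rows to genes of the GENCODE M21 annotation, by transcript accession or position.

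Livers of 12 male C57BL/6J mice, housed one to a cage, were sequenced at 21 weeks of age, 3 in each of 4 groups. The ND group ate a normal diet for 16 weeks and the HFD group a high-fat diet. The CLE group ate the high-fat diet with 1.5% (w/w) of an ethanol extract of *Chrysanthemum morifolium* leaves, and the LU group ate it with 0.003% (w/w) luteolin, a flavonoid of those leaves. HFD, CLE and LU mice thus shared the high-fat diet, and only the ND mice did not eat it. The mice were fasted before they were killed, and the study describes the sequenced livers as representative of larger groups. Mice are named here by the numbers in their labels, and nothing ties a number in one group to the same number in another.

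In complement, mannose-binding lectins or C1 start a chain of proteases that cleave C4 and C2, the alternative pathway amplifies the cleavage of C3, and the terminal proteins C5 to C9 insert a pore into the target membrane. In coagulation, proteases activate one another on cell surfaces until thrombin cuts fibrinogen into fibrin, factor XIII cross-links it, and plasmin dissolves it. Inhibitors such as C1 inhibitor, antithrombin, heparin cofactor II, protein C and protein S restrain both systems. Hepatocytes secrete most of these proteins, and several, fibrinogen among them, are acute-phase proteins whose synthesis rises in inflammation.

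Expression was deposited as FPKM, fragment numbers divided by transcript length and by sequencing yield, and the FPKM of all transcripts with one gene name were summed. Groups were compared with limma's moderated test on log2(FPKM + 1), two-sided, over 11566 genes (those whose mean over the 12 livers reached 0.5 FPKM), and a gene was called at an adjusted p (Benjamini-Hochberg, over all 11566) under 0.05. Log2 fold changes below are on that scale and carry their standard error. The libraries differed in how expression tracked GC content. Over 11492 genes, Spearman's rho between how far a library lay from the 12-library average and the GC content of the transcript ran from -0.373 to -0.141 in the 6 ND and HFD libraries and from 0.160 to 0.479 in the 6 CLE and LU libraries, with CLE mouse 4 the highest. This split coincides with the supplements, so GC content and treatment cannot be told apart in CLE or LU against HFD or ND. The hepatocyte markers Apoa1, Ttr, Tat, Cps1, Hnf4a, Asgr1 and Serpina1a were all expressed, whereas albumin was listed at 0 in 11 of 12 livers, which a failed estimate can give.

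The members ranged from F11, at a mean of 14.7 FPKM over the 12 livers, to Fgb, at 1870.4 FPKM, with a median of 227 FPKM, against a median of 8.04 FPKM over all genes tested. FPKM is scaled to length, so these levels can be set side by side. The 3 fibrinogen chains Fgb, Fgg and Fga, C3 and Kng1 had the highest levels, all above 1000 FPKM, and among sums by deposited name F11, Masp1, Pros1, C6 and C8b the lowest, from 14.7 to 75.2 FPKM. By M21 gene Cfp was lower still, at 10.6 FPKM, and Klkb1, C2 and F7 were at 24.1, 35.9 and 58.0 FPKM. Some names covered more than 1 gene. Of the sum under Cfb, 86.8% came from transcripts of Cfb itself, 8.75% from C2 and 4.44% from Gm20547. Of the sum under F10, 73.2% came from F10 and 26.8% from its neighbour F7. Of the sum under Klkb1, only 13.6% came from Klkb1, 70.6% came from the neighbouring Cyp4v3 and 15.85% from Gm45753. Sums by gene of the GENCODE M21 annotation were therefore added for all members, and the main values that differ from the sums by name are given below.

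Between HFD and ND livers, the clearest difference among the members was in C8b, a gene of the terminal complement pathway. In HFD livers C8b, which encodes the beta chain of C8, fell by 74.1%, C6 fell by 48.7% and C8a, the alpha chain of C8, fell by 29.6%. Masp1, F5, Pros1 and Cpb2 were 32.9% to 43.3% higher. In all, 7 of the 36 members were called, 4 higher and 3 lower, where 12.1% of all genes tested were called, 9.99% higher and 2.11% lower. The median log2 fold change of the members was 0.07, against 0.11 over all genes. In 14 members all HFD livers lay above all ND livers, as in 29.1% of all genes, and in 6 all lay below, as in 7.44% of all genes. At an unadjusted p under 0.05, 11 members (30.6%) passed, as did 27.2% of all genes. Over the 4 groups together, limma's F test called 11 of 36 members, where 24.4% of all genes were called. The plot of fold changes by role shows the 36 members in the 3 comparisons with the HFD group.

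**Figure D1:**
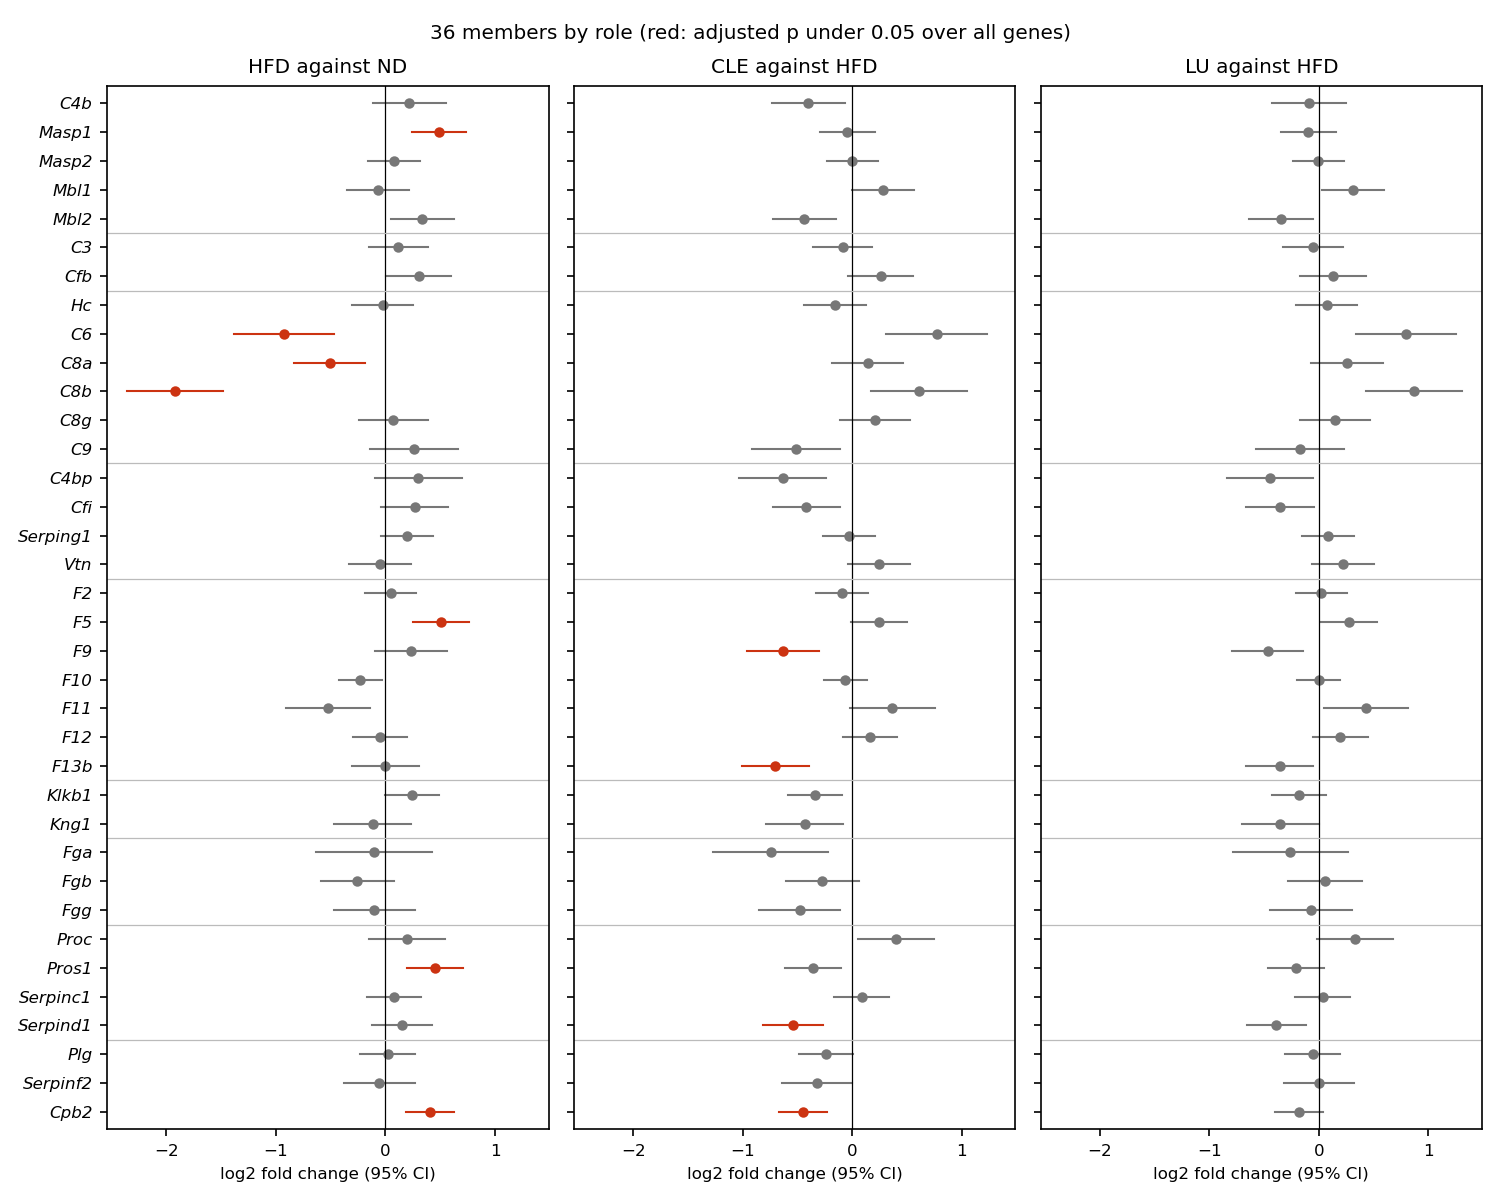
Log2 fold change on log2(FPKM + 1) (x axis) of the 36 members (y axis, ordered by role, grey lines between roles) in 3 panels (HFD versus ND, CLE versus HFD, LU versus HFD), with 3 mice per group. Points are limma estimates, bars 95% confidence intervals, and red marks an adjusted p under 0.05 over all 11566 genes: 7 members in the first panel, 4 in the second and 0 in the third.

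C8b was at 148, 151 and 120.1 FPKM in the 3 ND livers and at 39.8, 32.3 and 36.3 FPKM in the 3 HFD livers. It was at 51.4, 47.6 and 70.1 FPKM in CLE livers and at 63.6, 92.6 and 49.9 FPKM in LU livers. Every ND liver thus lay above every liver on the high-fat diet, and the HFD livers lay below all CLE and LU livers. The change from ND to HFD livers was -1.92 ± 0.20 on the log2 scale, and its adjusted p of 0.00011 was the smallest of any member. C8b was called in all 12 alternative settings tried, at -2.08 to -1.92, and with each of the 12 mice left out, at -2.02 to -1.84. Against HFD, C8b differed by 0.61 ± 0.20 in CLE livers (adjusted p = 0.077) and by 0.87 ± 0.20 in LU livers (adjusted p = 0.063), so neither was called.

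C6, a scaffold on which the pore assembles, was at 79.5, 95.1 and 56.1 FPKM in ND livers and at 43.3, 32.4 and 42.7 FPKM in HFD livers. CLE livers had 80.1, 56.0 and 68.4 FPKM and LU livers 70.0, 85.5 and 53.9 FPKM. The HFD livers were the 3 lowest of the 12, and the other groups overlapped one another. HFD against ND gave -0.93 ± 0.21 (adjusted p = 0.014), a call lost without ND mouse 2 (-0.89), ND mouse 3 (-0.76) or HFD mouse 15 (-0.79), at adjusted p from 0.052 to 0.059. CLE against HFD gave 0.77 ± 0.21 (adjusted p = 0.050, just above the threshold) and LU against HFD 0.79 ± 0.21 (adjusted p = 0.087).

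C8a was at 132, 155 and 156 FPKM in ND livers and at 117, 86.2 and 109 FPKM in HFD livers. CLE livers had 119, 95.2 and 129.8 FPKM and LU livers 110.3, 121 and 140.5 FPKM, both overlapping the HFD livers. HFD against ND gave -0.51 ± 0.15 (adjusted p = 0.043). This call was near the threshold, and leaving out any 1 ND mouse, any 1 HFD mouse or LU mouse 3 ended it, at -0.60 to -0.38 and adjusted p from 0.050 to 0.16. The terminal member C9 went the other way, at 0.26, and was not called. Its HFD livers lay at 202 to 223 FPKM, all above the ND livers at 168 to 184. Hc (the mouse name of C5) and C8g (the gamma chain of C8) gave -0.03 and 0.07 and were not called either. The 3 chains of C8 therefore did not move alike, and the difference between chains was not tested.

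**Figure D2:**
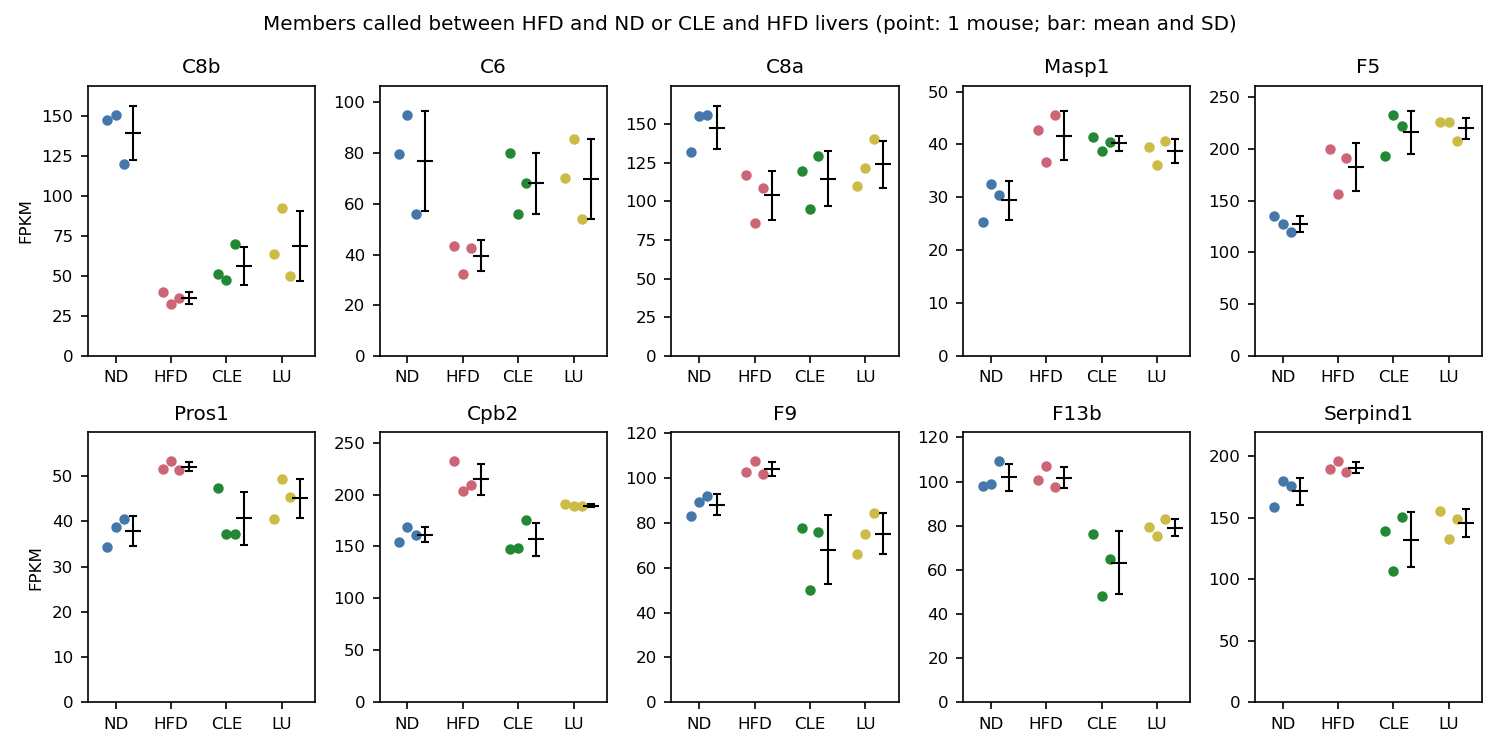
FPKM (y axes, from 0) in each of the 12 livers, by group (x axes), for the 10 members called between HFD and ND or between CLE and HFD livers. Points are mice and the bar beside them is the mean ± SD of the 3. The HFD livers lie below all ND livers for C8b, C6 and C8a and above all ND livers for Masp1, F5, Pros1 and Cpb2.

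C8b and C8a are neighbours on chromosome 4 that run towards each other. In M21 on GRCm38, C8b lies at chr4:104766317-104804548 on the plus strand and C8a at chr4:104815679-104876398 on the minus strand. The gap between them is 11130 bases and holds 0 whole protein-coding genes. The 250 bases before each start, from the RefSeq promoter table on GRCm38.p6, are shown because these 2 genes of one protein fell in the same livers. Capitals mark the letters TTCNNNGAA, a STAT-type motif. C8a holds it once, 228 to 220 bases before the start, and C8b holds none of the 4 motifs searched.

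C8b: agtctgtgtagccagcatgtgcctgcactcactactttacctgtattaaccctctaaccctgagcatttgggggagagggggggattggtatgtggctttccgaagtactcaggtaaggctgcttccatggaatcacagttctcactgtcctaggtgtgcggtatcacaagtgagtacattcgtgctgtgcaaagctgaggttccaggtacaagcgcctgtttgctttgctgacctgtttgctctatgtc

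C8a: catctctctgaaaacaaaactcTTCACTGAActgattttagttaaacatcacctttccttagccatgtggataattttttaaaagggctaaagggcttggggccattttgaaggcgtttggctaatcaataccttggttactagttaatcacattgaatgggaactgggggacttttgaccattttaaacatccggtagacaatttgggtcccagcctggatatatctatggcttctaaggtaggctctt

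The motifs were searched on both strands of the 250 bases in 31 promoters of 30 members and in all 32851 promoters of the table. TTCNNNGAA was in 6 of the 31, those of C8a, F9, Fga, Fgb, Masp2 and Pros1, and in 7.02% of all promoters. TTGCNNAA, a C/EBP-type motif, was in 7 of the 31, those of C3, C9, F11, F9, Fga, Fgb and Klkb1, and in 9.56% of all. GTTAAT followed by any base and ATT, an HNF1-type motif, was in those of C4bp, F13b and Hc and in 0.371% of all, and CAAAGTCCA, an HNF4-type motif, was in none of the 31 and in 0.384% of all. These matches are letters in a window and not binding sites.

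Among the genes that start the classical and lectin pathways, Masp1 was called. It encodes a protease that mannose-binding lectin carries. Masp1 was at 25.4, 32.5 and 30.4 FPKM in ND livers, 42.8, 36.6 and 45.6 in HFD livers, 41.4, 38.7 and 40.4 in CLE livers and 39.5, 36.2 and 40.6 in LU livers. All 9 livers on the high-fat diet lay above the 3 ND livers and overlapped one another. HFD against ND gave 0.49 ± 0.12 (adjusted p = 0.016), and 0.47 (adjusted p = 0.024) by M21 gene. With known transcripts alone the sign turned, to -0.56 (adjusted p = 0.56). The 4 other tested members of this role, C4b, Masp2, Mbl1 and Mbl2, were not called and gave -0.07 to 0.34, with Mbl2, a mannose-binding lectin, the highest (216 ± 26.3 FPKM in ND and 272 ± 23.8 in HFD livers, adjusted p = 0.13). C2, from the sums by M21 gene, was at 28.2, 33.8 and 30.3 FPKM in ND livers and at 30.1, 26.6 and 45.5 in HFD livers, which overlapped (0.11 ± 0.19, adjusted p = 0.76).

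Of the alternative pathway, C3, the protein on which all routes converge, was at 1597 ± 73.2 FPKM (SD, n = 3) in ND and 1735 ± 104 in HFD livers (0.12 ± 0.13, adjusted p = 0.60). Cfb, its partner protease factor B, was at 322 ± 2.92 and 398 ± 25.9 FPKM (0.30 ± 0.14, adjusted p = 0.18, and 0.29, adjusted p = 0.23, by M21 gene). Cfp, the stabiliser properdin, which leukocytes are best known to make, was found only by M21 gene and at a low level. It ranged from 6.57 to 8.18 FPKM in ND livers and was at 9.05 FPKM or more in every HFD liver (means 7.25 ± 0.835 and 11.3 ± 2.04), a difference of 0.57 ± 0.16 (adjusted p = 0.037 over the genes summed by M21, where 11.8% were called). With these sums, 8 of 39 members were called, and the F test called 23.7% of all genes. The complement regulators C4bp (the inhibitor of C4), Cfi (the protease factor I), Serping1 (C1 inhibitor) and Vtn (vitronectin) were not called, at -0.05 to 0.30.

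Among the clotting factors, F5, the cofactor that speeds the making of thrombin, was called. F5 was at 135, 128 and 119 FPKM in ND livers, 200.2, 156 and 191 in HFD livers, 193, 233 and 222 in CLE livers and 226, 226 and 208 in LU livers. The ND livers were the 3 lowest, and every LU liver lay above every HFD liver. HFD against ND gave 0.51 ± 0.12 (adjusted p = 0.015) and LU against HFD 0.28 ± 0.12 (adjusted p = 0.22). F2 (prothrombin), F9, F10, F11, F12 and F13b gave -0.52 to 0.23 and were not called. F11 was the lowest of these, at 16.7 ± 2.25 FPKM in ND and 11.3 ± 1.68 in HFD livers (adjusted p = 0.077). F7, the protease that tissue factor activates, gave -0.15 ± 0.12 by M21 gene (adjusted p = 0.47), and F10 without F7 gave -0.26 (adjusted p = 0.086). In the contact system, Kng1 (kininogen) gave -0.12. Klkb1 (prekallikrein) gave 0.24 under the mixed name and -0.28 ± 0.12 with its own transcripts alone (adjusted p = 0.15). The sign under the deposited name thus differed from that of the gene's own transcripts, and neither value was called. That mixed name is among the 14 with all HFD livers above all ND livers. By its own transcripts all HFD livers lay below, at 20.0 to 22.1 against 25.0 to 27.8 FPKM.

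The 3 fibrinogen genes gave -0.26 (Fgb), -0.10 (Fga) and -0.10 (Fgg) between HFD and ND livers, and none was called. Of the anticoagulants, Pros1 (protein S, the cofactor of protein C) was called. It was at 34.3, 38.8 and 40.5 FPKM in ND livers and at 51.6, 53.3 and 51.4 in HFD livers, with no overlap (0.45 ± 0.12, adjusted p = 0.025). CLE livers had 47.4, 37.3 and 37.3 FPKM and LU livers 40.6, 49.3 and 45.4, all below the HFD livers. Proc (protein C), Serpinc1 (antithrombin) and Serpind1 (heparin cofactor II) gave 0.08 to 0.20 and were not called.

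Of the fibrinolysis genes, Cpb2, whose product TAFI protects fibrin from plasmin, was called. It was at 154, 169 and 161 FPKM in ND livers and at 232, 203 and 209 in HFD livers, with no overlap (0.41 ± 0.10, adjusted p = 0.021). CLE livers had 147, 148 and 175 FPKM and LU livers 191, 189 and 189, so the CLE livers lay on both sides of the ND range and LU livers lay between ND and HFD. Plg (plasminogen) and Serpinf2 (the plasmin inhibitor alpha-2-antiplasmin) gave 0.02 and -0.05.

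The calls of the 4 higher members depended on how the libraries were scaled. ND libraries had median-of-ratios factors of 0.894 to 0.964 against 0.960 to 1.056 in the others, and dividing by these factors moved the median of all genes between HFD and ND from 0.11 to -0.01. Under that scaling, 0 members were called higher and 5 lower (C6, C8a, C8b, F10 and F11), in place of 4 and 3. Masp1 (0.33), F5 (0.35), Pros1 (0.30) and Cpb2 (0.25) then had adjusted p of 0.080 to 0.19. The split was 3 higher and 3 lower with quantile normalization. It was 1 higher and 4 lower with a correction for GC content (2 and 5 with length as well). Over all genes, 1156 higher and 244 lower became 619 and 505 with median-of-ratios factors and 585 and 465 with quantile normalization. With the GC correction they became 636 and 525 (698 and 614 with length as well). Single mice also ended calls of Masp1, F5, Pros1 and Cpb2. Leaving out ND mouse 2, HFD mouse 12 or HFD mouse 18 left 2 members called in all, C8b with F5 or with C6. The values of these 4 ran from 0.35 to 0.62 over all mice left out. The plot of called members under 5 scalings shows that C8b, C6 and C8a stayed called under each. C8a was lost without a filter, with known transcripts alone and with the transcript of highest mean, and C6 with the last of these. Cpb2 was kept in each of these settings, whereas Masp1, F5 and Pros1 were kept only without a filter.

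**Figure D3:**
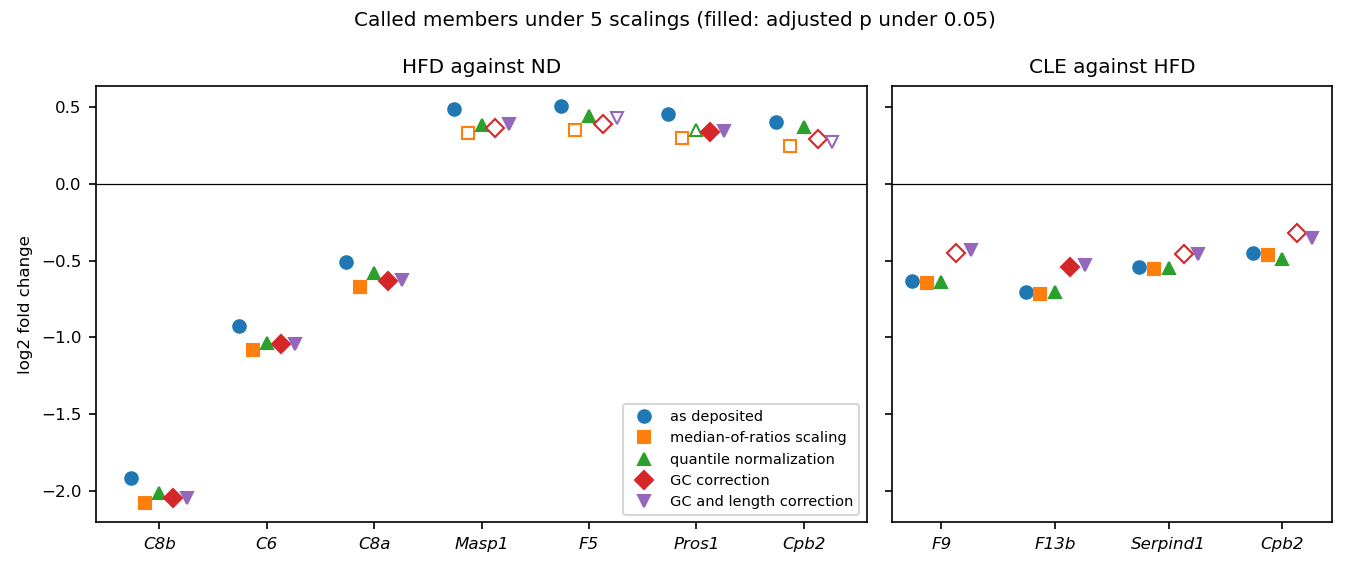
Log2 fold change (y axis) of the called members (x axis) with the values as deposited and under 4 other scalings, for HFD against ND (left) and CLE against HFD (right). Filled symbols have an adjusted p under 0.05. C8b, C6 and C8a are filled under all 5 scalings, whereas Masp1, F5, Pros1 and Cpb2 are open under median-of-ratios scaling.

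Between CLE and HFD livers, 4 members were called and all were lower in the CLE group. F13b fell by 37.9%, F9 fell by 34.6%, Serpind1 fell by 30.7% and Cpb2 fell by 26.9%. They belong to different arms, the cross-linking of fibrin, the activation of factor X, the inhibition of thrombin and the protection of fibrin. The share of 4 of 36 stands beside 6.03% called among all genes, 2.74% higher and 3.29% lower. By M21 gene the same 4 were called, where 5.66% of all genes were. The median log2 fold change of the members was -0.12, against 0.02 over all genes. In 16 members all CLE livers lay below all HFD livers, against 15% of all genes, and in 3 (C6, C8b and F11) all lay above, against 16.3% of all genes. At an unadjusted p under 0.05, 19 members (52.8%) passed, as did 29.5% of all genes. Both the 16 and the 19 include the mixed name Klkb1. With its own transcripts alone, every CLE liver lay above every HFD liver (22.8 to 27.6 against 20.0 to 22.1 FPKM).

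F13b, the carrier subunit of factor XIII, was at 101, 107 and 97.6 FPKM in HFD livers and at 76.4, 48.2 and 65.1 in CLE livers (-0.70 ± 0.14, adjusted p = 0.023). LU livers had 79.3, 75.2 and 82.9 FPKM and ND livers 97.9, 98.8 and 109. The ND and HFD livers overlapped, and all CLE and LU livers lay below them. F9, the haemophilia B factor, was at 102, 107 and 101 FPKM in HFD livers and at 77.7, 50.2 and 75.6 in CLE livers (-0.63 ± 0.15, adjusted p = 0.037). LU livers had 66.0, 75.0 and 84.1 FPKM and ND livers 83.0, 89.2 and 91.8.

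Serpind1 was at 189, 196 and 187 FPKM in HFD livers and at 139, 107 and 151 in CLE livers (-0.54 ± 0.13, adjusted p = 0.035). LU livers had 156, 133 and 149 FPKM and ND livers 159, 179.9 and 176, so the HFD livers were the 3 highest. For Cpb2, whose values are given above, CLE against HFD gave -0.45 ± 0.10 (adjusted p = 0.033). In F13b, F9 and Serpind1, CLE mouse 4 was the lowest of the 12 livers.

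The 4 calls rested on few mice. Without CLE mouse 4, none was called, at -0.52 for F13b (adjusted p = 0.056), -0.43 for F9, -0.39 for Serpind1 and -0.41 for Cpb2 (adjusted p = 0.11 each). Leaving out any of HFD mice 12, 15 and 18 also left 0 calls, and leaving out CLE mouse 2 gave 11. The lower members also had lower GC content. Over the 36 members, Spearman's rho between the log2 fold change of CLE against HFD and the GC content of the transcript was 0.435, and F9 had 39.0% GC, the lowest of the set, and F13b 41.4%. These points share the same 6 libraries, so the value is a description only. Over the same members, the rho of single libraries with GC ran from -0.475 to -0.115 in ND and HFD livers, whereas CLE livers had -0.081, 0.553 (mouse 4) and 0.248. Subtracting each library's trend with GC left F13b called (-0.54, adjusted p = 0.036) and the other 3 not, and subtracting trends with GC and transcript length left all 4 called among 6.

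**Figure D4:**
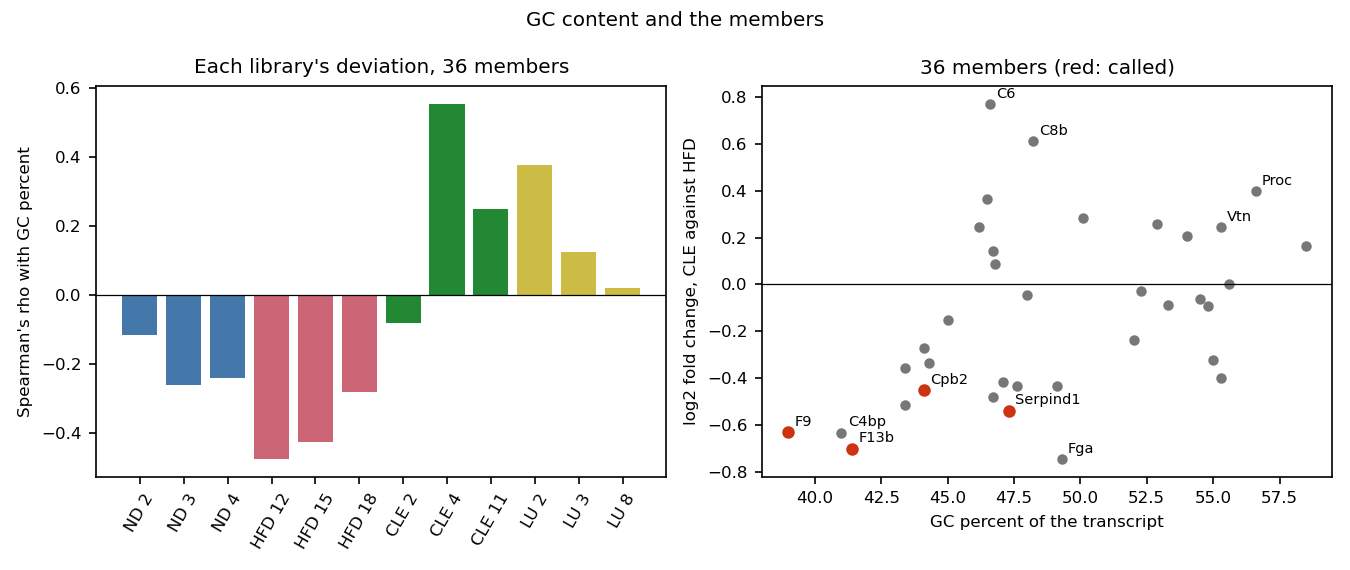
Left, Spearman's rho (y axis) over the 36 members between how far a library lay from the 12-library average and GC percent, for each mouse (x axis). Right, log2 fold change of CLE against HFD (y axis) against GC percent of the transcript (x axis) for the 36 members, with called members in red. CLE mouse 4 has the highest rho, 0.553, and the called members lie at 47.3% GC or less.

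Several members that were not called lay apart in the same comparison. Fga gave -0.75 ± 0.24 (adjusted p = 0.074), Fgg -0.48 ± 0.17 (adjusted p = 0.093), C4bp -0.63 ± 0.18 (adjusted p = 0.056) and Mbl2 -0.44 ± 0.13 (adjusted p = 0.064). Proc was at 314 ± 80.7 FPKM in CLE and 234 ± 22.0 in HFD livers (0.40 ± 0.16, adjusted p = 0.13). F7 by M21 gene was at 50.8, 39.5 and 52.4 FPKM in CLE livers and at 64.4, 65.0 and 60.3 in HFD livers, without overlap (-0.41 ± 0.12, adjusted p = 0.060).

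Between LU and HFD livers, limma called 0 of the 36 members, where 1.03% of all genes were called (0.303% higher and 0.726% lower), and 12 members (33.3%) passed an unadjusted p of 0.05, as did 20.3% of all genes. By M21 gene 0 of 39 were called, against 0.993% of all genes. C8b (0.87) and C6 (0.79) had the largest differences, and F9 (-0.47 ± 0.15, adjusted p = 0.13), C4bp (-0.45 ± 0.18, adjusted p = 0.20) and Serpind1 (-0.39 ± 0.13, adjusted p = 0.13) were the lowest. In 6 members all LU livers lay above all HFD livers (13.1% of all genes) and in 8 all lay below (16.9% of all genes). The 8 include the mixed name Klkb1, whose own transcripts overlapped (20.9 to 28.2 FPKM in LU livers and 20.0 to 22.1 in HFD livers). The median of the members was -0.003, against -0.02 over all genes. The 95% confidence intervals were 0.39 to 1.06 wide, so differences smaller than these widths could go undetected with 3 mice per group. Without CLE mouse 4, which enters this comparison only through the shared estimate of spread, 4 members were called: C6 and C8b higher, F9 and Serpind1 lower. Without LU mouse 8, C6 and C8b were.

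Set against ND livers, CLE livers differed in 12 members, where 27% of all genes were called (20.9% higher and 6.08% lower). In 4 members all CLE livers lay above all ND livers (32.2% of all genes) and in 11 all lay below (10.1%). All 3 chains of fibrinogen, the clot protein, were called lower. Fga, the alpha chain, was at 1223, 1547 and 1389 FPKM in ND livers, 1203, 1356 and 1300.2 in HFD livers and 953, 499 and 945 in CLE livers. Fgb, the beta chain, was at 2115, 2238 and 2217 FPKM in ND livers, 1793, 1809 and 1898 in HFD livers and 1555, 1344 and 1672 in CLE livers. Fgg, the gamma chain, was at 1932, 2191 and 2149 FPKM in ND livers, 1946, 1949 and 1946 in HFD livers and 1489, 1124 and 1622 in CLE livers. All CLE livers lay below all ND and HFD livers for each chain, and CLE mouse 4 was the lowest of the 12. CLE against ND gave -0.85 ± 0.24 (Fga), -0.53 ± 0.16 (Fgb) and -0.58 ± 0.17 (Fgg), at adjusted p of 0.024 to 0.027.

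The LU livers were more spread, with Fga at 969, 869 and 1464 FPKM, Fgb at 1669, 1702 and 2432 and Fgg at 1603, 1688 and 2351, where LU mouse 8 reached into or above the ND range each time. The fibrinogen calls of CLE against ND were lost without CLE mouse 4, without ND mouse 3 and without ND mouse 4, each of which left 5 members called (C8b, Cfb, F13b, F5 and Masp1), and that of Fgb also without ND mouse 2. Without CLE mouse 4 the values were -0.54 (Fga), -0.44 (Fgb) and -0.43 (Fgg). They were kept under median-of-ratios scaling and with the correction for GC content. All 3 were lost without a filter and in the 2 groups alone, at adjusted p of 0.050 to 0.057, and Fgb and Fgg in the ND, CLE and LU mice alone. Fga was also lost with the transcript of highest mean. All 3 were lost with the mouse number as a block, with or without the GC correction.

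The fibrinogen genes form a cluster on chromosome 3, with Fgg at chr3:83007724-83015049 and Fga at chr3:83026076-83033627 on the plus strand and Fgb at chr3:83040141-83049863 on the minus strand. The gaps are 11026 and 6513 bases and hold 0 whole protein-coding genes. Up to 250 bases before the start, from the same RefSeq table on GRCm38.p6, are shown because the 3 chains of one protein were called in the same comparison. Capitals mark TTGCNNAA on either strand and TTCNNNGAA. Fga holds the first 135 to 128 and the second 234 to 226 bases before the start, Fgb holds them at 80 to 73 and 162 to 154, and Fgg holds neither. The RefSeq start of Fga lies 77 bases inside the M21 gene, so its positions count from the RefSeq start and only the 173 bases before the M21 gene (chr3:83025903-83026075) are shown.

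Fga: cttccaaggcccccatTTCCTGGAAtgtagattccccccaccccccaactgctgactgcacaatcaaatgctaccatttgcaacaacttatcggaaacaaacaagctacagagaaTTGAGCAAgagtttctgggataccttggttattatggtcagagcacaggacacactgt

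Fgb: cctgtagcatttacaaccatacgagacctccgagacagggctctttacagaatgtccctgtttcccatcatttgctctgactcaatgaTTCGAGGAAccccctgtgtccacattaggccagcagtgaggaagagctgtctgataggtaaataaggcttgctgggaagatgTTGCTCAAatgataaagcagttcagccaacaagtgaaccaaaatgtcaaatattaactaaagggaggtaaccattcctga

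Fgg: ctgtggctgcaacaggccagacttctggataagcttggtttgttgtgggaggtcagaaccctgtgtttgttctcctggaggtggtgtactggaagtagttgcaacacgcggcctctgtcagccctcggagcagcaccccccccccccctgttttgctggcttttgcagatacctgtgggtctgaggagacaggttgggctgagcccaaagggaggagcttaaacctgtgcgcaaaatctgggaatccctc

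The other members called lower in CLE than in ND livers were C8b (56.4 ± 12.0 against 139.6 ± 16.9 FPKM, -1.31 ± 0.20), F13b (63.2 ± 14.2 against 102 ± 6.25, -0.70 ± 0.14), Kng1 (903 ± 162 against 1310.3 ± 75.4, -0.55 ± 0.16), Serpind1 (107 to 151 against 159 to 179.9, -0.39 ± 0.13) and F10 (201 ± 11.3 against 246 ± 7.27, -0.29 ± 0.09). The last includes F7. By M21 gene, F10 alone gave -0.19 ± 0.09 (adjusted p = 0.12) and was not called, whereas F7 was at 65.0, 67.5 and 79.2 FPKM in ND livers against 50.8, 39.5 and 52.4 in CLE livers (-0.57 ± 0.12, adjusted p = 0.0086). By M21 gene, 13 of 39 members were called, where 26.8% of all genes were. The members called higher were F5 (216 ± 20.7 against 127 ± 7.73 FPKM, 0.76 ± 0.12), Proc (314 ± 80.7 against 203 ± 10.5, 0.59 ± 0.16), Cfb (483 ± 103 against 322 ± 2.92, 0.56 ± 0.14) and Masp1 (40.2 ± 1.35 against 29.4 ± 3.66, 0.44 ± 0.12). With known transcripts alone F5 turned to -0.70 (adjusted p = 0.052) and Masp1 to -0.11 (adjusted p = 0.88), whereas Proc gave 3.02. With the transcript of highest mean Proc gave 0.28, and with the GC correction 0.27 (adjusted p = 0.22). With Cfb's own transcripts alone the difference was 0.52 ± 0.15 (adjusted p = 0.023). Under median-of-ratios scaling the split was 1 higher and 13 lower in place of 4 and 8, with F5 the only member called higher. It was 2 and 11 with the GC correction. Over all genes, 2416 higher and 703 lower became 1220 and 1622 with median-of-ratios scaling and 828 and 1190 with the GC correction.

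LU livers differed from ND livers in 4 members, where 14.9% of all genes were called, 11.2% higher and 3.78% lower. In 9 members all LU livers lay above all ND livers (29.4% of all genes) and in 5 all lay below (11.5%). F5 (220.0 ± 10.4 FPKM in LU livers, 0.79 ± 0.12, adjusted p = 0.0026), Proc (294 ± 27.4, 0.53 ± 0.16, adjusted p = 0.046) and Masp1 (38.8 ± 2.32, 0.39 ± 0.12, adjusted p = 0.039) were higher and C8b (68.7 ± 21.8, -1.05 ± 0.20, adjusted p = 0.0085) lower. By M21 gene, F7 was also lower, at 49.2, 48.1 and 54.7 FPKM (-0.47 ± 0.12, adjusted p = 0.027), Cfp was higher, at 8.80, 12.6 and 11.7 FPKM (0.54 ± 0.16, adjusted p = 0.043), and Masp1 was not called, where 14.6% of all genes were. C8b and F5 were called with each of the 12 mice left out, whereas Proc was called in 2 of these 12 fits and Masp1 in 5. With known transcripts alone F5 turned to -0.55 (adjusted p = 0.13) and Proc gave 2.89, against 0.27 with the GC correction. Under median-of-ratios scaling the split was 1 higher and 4 lower in place of 3 and 1. It was 2 and 2 with quantile normalization and 1 and 2 with the GC correction. Over all genes, 1290 higher and 437 lower became 710 and 1040, 711 and 969, and 535 and 700 in the same order. The comparisons of CLE and LU with ND share the ND mice, and those with HFD share the HFD mice, so their values stand side by side and are not independent of one another.

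**Figure D5:**
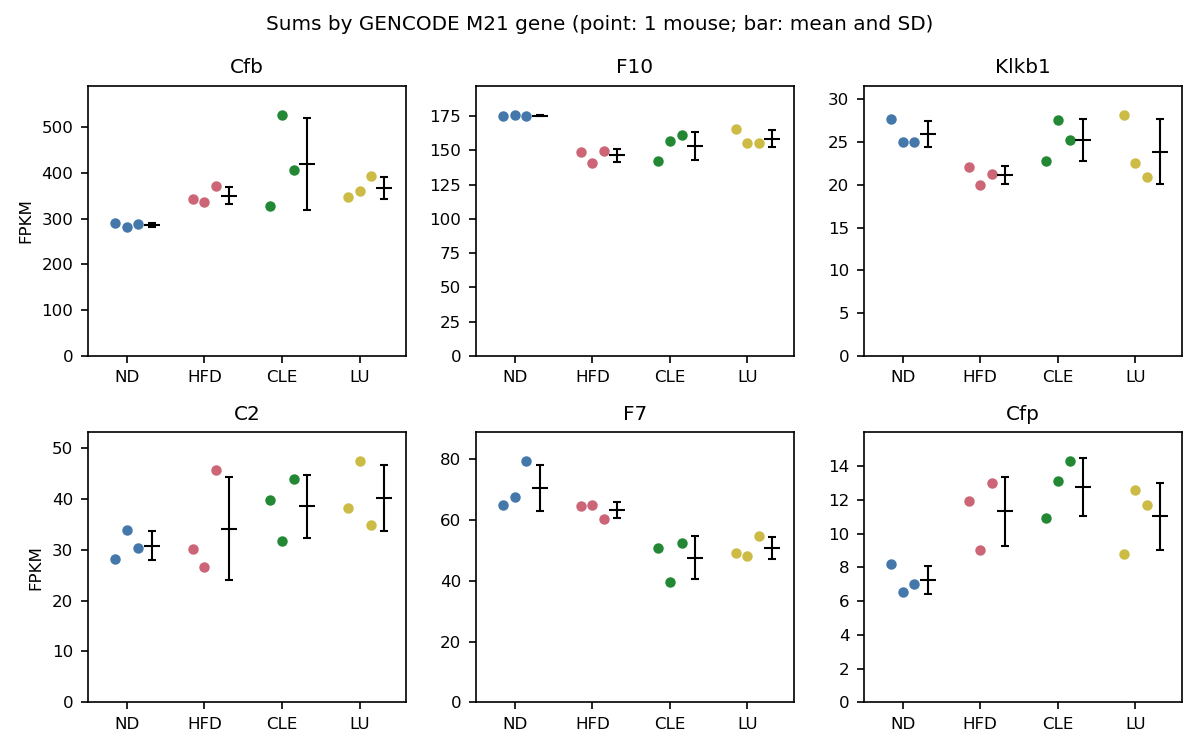
FPKM summed by gene of GENCODE M21 (y axes, from 0) in each of the 12 livers by group (x axes) for the 6 members whose deposited names mix genes or are missing. Points are mice and bars the mean ± SD of the 3. All ND livers lie above all CLE and LU livers for F7 and below all CLE and LU livers for Cfp.

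CLE and LU livers were compared directly as well. Limma called 0 of 36 members, 4 (11.1%) passed an unadjusted p of 0.05 (Cpb2, F13b, Fgg and Serpinf2), as did 4.39% of all genes, and 0.00865% of all genes were called, 1 of 11566. By M21 gene 0 of 39 were called, against 0.00834% of all genes. The largest differences were in Fga (-0.48, 95% confidence interval -1.01 to 0.04) and Fgg (-0.41, -0.78 to -0.04). F13b gave -0.34 (-0.65 to -0.04) and Cpb2 -0.27 (-0.49 to -0.06), with all CLE livers below all LU livers for Cpb2 and C4b, against 2.42% of all genes. In 0 members did all CLE livers lie above all LU livers, against 4.66% of all genes. C8b gave -0.25 (-0.69 to 0.18) and C6 -0.02 (-0.48 to 0.43).

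The 81 other complement and coagulation genes listed beside the members, with the vitamin K cycle and transcription factors of plasma protein genes, included 68 that were tested. Between HFD and ND livers 13 of the 68 were higher and 1 lower, where 9.99% of all genes were called higher and 2.11% lower. Cfd, the protease factor D of the alternative pathway and a product of adipocytes, had the largest change, from 0.889 to 1.65 FPKM in ND livers to 58.9 to 104 in HFD livers (5.11 ± 0.59, adjusted p = 0.00019). Its range was 21.8 to 150 FPKM in CLE livers and 71.3 to 265 in LU livers. Other genes called higher included Nqo1, a quinone reductase (4.43 ± 0.216 to 11.8 ± 1.42 FPKM, 1.23 ± 0.18), Mug2, a protease inhibitor of the alpha-2-macroglobulin family whose reads can be shared with Mug1 (1.09 ± 0.17), and Vsig4, a complement receptor of Kupffer cells (0.92 ± 0.19). The gene called lower was Foxa3, a hepatocyte transcription factor (29.9 ± 1.37 to 20.0 ± 2.85 FPKM, -0.57 ± 0.15).

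Between CLE and HFD livers, 2 of the 68 were higher and 3 lower, beside 2.74% and 3.29% of all genes. Mug2 (-1.03 ± 0.17), Hrg, the histidine-rich glycoprotein (-0.73 ± 0.14), and Habp2, a protease that can activate factor VII (-0.54 ± 0.11), were lower, and Foxa3 (0.65 ± 0.15) and Irf1, an interferon-induced transcription factor (0.53 ± 0.14), were higher. Between LU and HFD livers, Nqo1 alone was called (-0.85 ± 0.18, adjusted p = 0.043). Against ND, 14 of the 68 were higher and 7 lower in CLE livers, beside 20.9% and 6.08% of all genes, and 9 were higher and 2 lower in LU livers, beside 11.2% and 3.78%.

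Markers of other cell types moved with the high-fat diet beside these genes. Over all genes, 9.99% were called higher in HFD than in ND livers. Of the 7 tested Kupffer cell and macrophage markers, Cd5l, Cd68, Csf1r and Vsig4 were called higher in HFD than in ND livers, and their summed level was 103 to 114 FPKM in ND and 150 to 225 in HFD livers. Of 6 stellate cell markers, Col1a1, Dcn and Lrat were higher (70.7 to 99.4 and 116 to 149 FPKM summed), and of 6 endothelial markers, Stab2 (67.5 to 80.2 and 86.1 to 90.7 FPKM). Adipoq, Plin1 and Lep, the defining adipocyte markers, were at most 0.759 FPKM in any liver. Adipoq had a median of 0.508 FPKM in LU livers and was at 0.145 FPKM or less in the others, whereas Fabp4, a fatty acid carrier of adipocytes and macrophages, was higher in HFD than in ND livers (1.24 ± 0.29). Pf4, a platelet marker, was also higher (1.04 ± 0.23). The hepatocyte, neutrophil, lymphocyte and cholangiocyte markers gave 0 calls between HFD and ND livers. In CLE against HFD, none of the 7 macrophage markers was called, and of the hepatocyte markers Apoa1 (0.84 ± 0.20) and Serpina1a (0.83 ± 0.18) were higher, as were the stellate marker Des (0.43 ± 0.12) and the megakaryocyte marker Itga2b (0.87 ± 0.17). Between CLE and ND livers, Cps1, a urea cycle enzyme of hepatocytes, was lower. The markers called higher there were S100a8 and S100a9 of neutrophils (2 of 2 tested), Cdh5, Clec4g and Stab2 of endothelium (3 of 6), Col1a1, Dcn and Des of stellate cells (3 of 6), Cd5l, Cd68 and Clec4f of macrophages (3 of 7), Fabp4 (1 of 1), Itga2b (1 of 3) and Sox9 (1 of 2). Over all genes, 20.9% were called higher in that comparison. Between LU and ND livers, Cps1 was again lower, and Cd68, Clec4g, Stab2, Col1a1, Dcn, Des, Fabp4 and Pf4 were higher, beside 11.2% of all genes. In bulk liver, fewer cells of a type and less RNA per cell cannot be told apart, and the part of these markers in the members' differences was not tested.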

How the data were processed

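The members, the related genes, the markers and the motifs were chosen with earlier results of these data known. The authors base-called reads with CASAVA 1.8.2, aligned them with TopHat2 2.0.12 and Bowtie2 2.2.3 and quantified them with Cufflinks 2.2.1, and deposited FPKM for 152210 transcripts. The table names 30 samples in its assembly and holds 12. The genome build is not given in the sources used here, and 85.5% of known transcripts have the start and end of GENCODE M21 on GRCm38. Whether the DEGES and edgeR factors that the methods name are in the FPKM is not stated. The FPKM carry no counts, so depth is unknown, no counting error can be given, and a 0 can be a failed estimate. The sum over all named genes ran from 1698823 FPKM (ND mouse 4) to 5575486 FPKM (CLE mouse 4). The median-of-ratios factors of these mice were 0.915 and 1.052. Cufflinks shares fragments out among overlapping transcripts and close copies, so C4b (with C4a), Kng1 (with Kng2), Mug2 and Cd59a with Cd59b are uncertain.

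FPKM were summed by gene name, leaving out 6316 transcripts with none. Groups were compared with limma 3.58.1 in R 4.3.3 (trend on, pseudocount 1, a joint fit of the 12 mice with 12.82 degrees of freedom in total). The fit was tested on simulated data. Per-liver values are given for members called against HFD or between HFD and ND. For related genes, the 5 largest called changes are named, except 1 that is not reported here, and Foxa3 was named between HFD and ND after its value was seen, as were members not called that lay apart. Nothing says that replicates share a litter or batch.

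Alternatives were a pseudocount of 0.1, no filter, a filter at 5 FPKM, scaling by medians of ratios, quantile normalization, only the groups compared, limma without its trend, only the most abundant transcript, only known transcripts, each mouse left out, and the mouse number as a block. Sums by M21 gene and corrections for GC content and length (loess, span 0.5) were added after seeing the data.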

Additional observations from a re-analysis of the deposited data

How the results depend on the processing

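Of the member counts above, those of HFD against ND (7) became 2 with the transcript of highest mean and 4 with known transcripts alone, and 2 to 8 with single mice left out (2 without ND mouse 2, HFD mouse 12 or HFD mouse 18). For CLE against HFD (4), the counts were 1 without a filter, 7 with quantile normalization, 0 in the 2 groups alone, 1 with the GC correction and 0 to 11 with single mice left out. For LU against HFD (0), they were 1 with the transcript of highest mean, 1 with known transcripts and 0 to 4. CLE against ND (12) gave 4 in the 2 groups alone and 5 to 15, LU against ND (4) gave 2 in the ND, CLE and LU mice alone and 2 to 7, and CLE against LU (0) gave 1 with the transcript of highest mean and 0 to 0. The F test among the 4 groups called 11 of 36 members (24.4% of all genes), 7 without a filter and 4 to 14 with single mice left out.

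Counts over all genes moved too. For CLE against HFD, 698 became 91 in the 2 groups alone, 127 without a filter, 1095 with quantile normalization, 263 with the transcript of highest mean, 353 with the GC correction, 2190 without CLE mouse 2 and 55 without CLE mouse 4. For HFD against ND, 1400 became 645 with the transcript of highest mean and 718 with known transcripts. For LU against HFD, 119 became 262 in the 2 groups alone and 57 without a filter. For CLE against ND, 3119 became 1809 in the 2 groups alone, 2018 with the GC correction and 1608 without CLE mouse 4, which also took LU against HFD to 545. The replicate block was fitted on the ND, CLE and LU mice alone. Those mice gave 2467 calls for CLE against ND and 1145 for LU against ND without the block, and 339 and 19 with it. The fit of all 12 mice gave 3119 and 1727.

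Of 27 results for called members, 696 values under alternatives gave 497 on the same side of the threshold, 193 no longer past it and 6 of opposite sign. With known transcripts alone, Masp1 gave -0.56 (HFD against ND, adjusted p = 0.56) and -0.11 (CLE against ND, 0.88), and F5 gave -0.70 (CLE against ND, 0.052) and -0.55 (LU against ND, 0.13). With the transcript of highest mean, Cfb gave -0.16 (CLE against ND, 0.50) and Masp1 -0.025 (CLE against ND, 0.92). Both settings drop part of a gene's transcripts, among which fragments are shared out by estimation. The cause of these sign changes and of the other changes was not tested.

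Mouse numbers are shared between CLE and ND (2 and 4) and LU and ND (2 and 3). Deviations of same-numbered mice correlated at -0.259 and -0.096, and at 0.086 and 0.183. Without values for different-numbered mice beside them, these correlations cannot decide whether the numbers mark pairs. Nothing in the sources used here ties the numbers together, so they were not taken as pairs. With the number as a replicate block, CLE against ND gave 1 call (C8b) and LU against ND 0. The same ND, CLE and LU mice without the block gave 8 and 2. With the block and the GC correction the counts were again 1 and 0. Depth is unknown, and 3 mice per group limit what could be called.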
